A study of Mus musculus with 15 samples.

Results

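The 9 genes described here are 5 dual-specificity phosphatases (Dusp1, Dusp4, Dusp5, Dusp6 and Dusp14) and 4 members of the Sprouty family in the wide sense (Spry2, Spry4, Spred1 and Spred2). They were found by gene name among the 21878 rows of the deposited tables, all 9 were present, and all 9 were among the 12728 genes tested. RNA-seq had been made from prefrontal forebrain cortex of mice that were 8 months old when exposure began and that drank nicotine or plain water for 3 months, with behaviour tests before tissue was taken. The 4 groups were DKO mice given nicotine at 100 µg/ml (3 libraries), DKO mice given water (4 libraries), WT mice given nicotine at 100 µg/ml (4 libraries) and WT mice given water (4 libraries). DKO mice are labelled PS1/PS2 DKO, that is, without both presenilins, the catalytic proteins of γ-secretase. WT mice are labelled wildtype C57BL6/J. The sources used here do not say how the deletion was driven or in which cells.

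Receptors for growth factors and calcium entry at synapses switch on Ras, which starts the kinase relay RAF, MEK and ERK. Dual-specificity phosphatases end the signal by removing phosphate from both the threonine and the tyrosine of the MAP kinase activation loop, and Sprouty and Spred proteins restrain it nearer the receptor, at Ras and RAF. Several of these inhibitors are themselves transcribed in response to MAP kinase activity, so the pathway makes its own brakes, and in neurons some of them are induced by synaptic activity within the same wave as Fos and Egr1.

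Dusp1 and Dusp5 had the largest percentage differences of the 9 between DKO and WT mice on water, and their promoters are shown for the response elements they hold. Promoter windows of 250 bases before to 50 after the start were taken from RefSeq (build GRCm38.p6) for the 7 of the 9 genes that the table lists. The Dusp1 window is chr17:26508423-26508722 on the minus strand. Its capitals mark a cAMP response element, TGACGTCA, and an E-box, CACGTG. The Dusp5 window is chr19:53528895-53529194 on the plus strand. Its capitals mark adjoining CArG boxes, the element bound by serum response factor.
Dusp1: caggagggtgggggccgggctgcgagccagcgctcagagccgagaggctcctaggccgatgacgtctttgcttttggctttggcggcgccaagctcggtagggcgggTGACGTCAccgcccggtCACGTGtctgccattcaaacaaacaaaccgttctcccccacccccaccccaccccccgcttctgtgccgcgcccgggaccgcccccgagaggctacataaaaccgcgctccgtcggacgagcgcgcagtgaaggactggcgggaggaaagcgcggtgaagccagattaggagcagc
Dusp5: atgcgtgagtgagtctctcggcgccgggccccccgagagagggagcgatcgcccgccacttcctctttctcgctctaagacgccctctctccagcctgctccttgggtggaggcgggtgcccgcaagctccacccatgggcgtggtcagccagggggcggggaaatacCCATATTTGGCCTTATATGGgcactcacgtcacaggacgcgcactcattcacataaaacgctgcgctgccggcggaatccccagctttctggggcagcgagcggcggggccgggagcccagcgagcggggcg

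Among 32817 RefSeq promoters of the same length, 1.79% held TGACGTCA, 7.15% held CACGTG and 1.63% held a CArG box on either strand. The ETS core CCGGAA, held by 14.9% of promoters, stood in the windows of Dusp14 and Spry2. The AP-1 motif TGANTCA, held by 7.81% of promoters, was in none of the 7 windows. The cAMP response element, the E-box and the CArG box were each found in 1 of the 7. The windows of Dusp6, Spred1 and Spred2 held none of the motifs searched. These are letter matches, the motifs did not overlap each other in these windows, and binding was not measured.

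The libraries held 16334793 to 19469126 reads in genes. The deposited unit is FPKM, a level scaled for the length of the gene model and for the depth of the library. Psen2, which the label names as deleted, had 1.76, 1.36 and 1.59 FPKM in DKO mice on nicotine and 1.54, 1.72, 1.5 and 1.29 FPKM in DKO mice on water, against 5.71 to 7.05 FPKM in WT mice on nicotine and 5.44 to 7.14 FPKM in WT mice on water. Y-linked expression (Ddx3y, Eif2s3y, Kdm5d, Uty) was present in 2 of 3 DKO libraries with nicotine (all but replicate 2) and 4 of 4 DKO libraries with water, against 0 of 4 WT libraries with nicotine and 4 of 4 WT libraries with water. The genotype comparison in water therefore has Y-linked expression in all 8 libraries, whereas in WT mice nicotine and Y-linked expression cannot be told apart. All 4 pan-neuronal and all 6 excitatory markers were detected in every library. Differences below are on the log2(FPKM + 1) scale, which understates the change of genes with low FPKM, and a gene was called when limma gave an adjusted p under 0.05 over all tested genes.

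On build GRCm38.p6 the phosphatase genes lie at chr17:26505591-26508472 (Dusp1), chr8:34807610-34819894 (Dusp4), chr19:53529145-53541809 (Dusp5), chr10:99263231-99267489 (Dusp6) and chr11:84048033-84069256 (Dusp14). The others lie at chr14:105891947-105896819 (Spry2), chr18:38586247-38601347 (Spry4), chr2:117121071-117182279 (Spred1) and chr11:19924442-20024026 (Spred2). The inhibitors covered a wide range of levels. In WT mice on water Dusp1 averaged 35.1 FPKM, Spred1 31.2, Dusp6 30.1 and Dusp14 28.5, and neighbours in this order overlapped between libraries. Spry2 (16.3 FPKM) and Dusp5 (6.17 FPKM) stood apart from their neighbours. Spry4 (3.47 FPKM) and Dusp4 (3.42 FPKM) were lowest and overlapped. In DKO mice on water the order was different: Spred1 led at 29.7 FPKM, followed by Dusp14 at 20.5 FPKM, each clear of the next, and Dusp6 (16.4), Dusp1 (15.9) and Spry2 (13.6) overlapped as neighbours. Dusp1 was thus the member with the highest mean in WT mice on water and the one with the fourth highest mean in DKO mice on water.

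The level of each member depends on the gene model that the authors divided by. The FPKM of Spred2 implies a model of 33695 bases, 7.57 times its longest GENCODE transcript (4449 bases), a ratio that 0.0324% of genes exceeded. Its values of about 3 FPKM rest on 1584 to 2595 reads per library, and its level is not set against the other members. The models implied for Spry2 (3373 bases) and Dusp14 (2342 bases) were 1.62 and 1.49 times their longest transcripts. Such ratios were exceeded by 9.13% and 11.4% of genes, and the places of both in the order above rest on these models. The model implied for Dusp5 has 1155 bases, against a longest transcript of 2473 bases with a coding length of 1152 bases before the stop codon. Dusp5 rests on 51 to 148 reads per library, the fewest of the 9, Dusp4 on 85 to 172 and Spry4 on 160 to 341. The percentage by which the mean of a gene differs between groups does not depend on the length used. Its difference on the log2(FPKM + 1) scale does, through the added 1. With 0.1 added instead, DKO against WT in water differed by −1.04 for Dusp5 and −0.28 for Spred2, against −0.86 and −0.22.

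**Figure D1:**
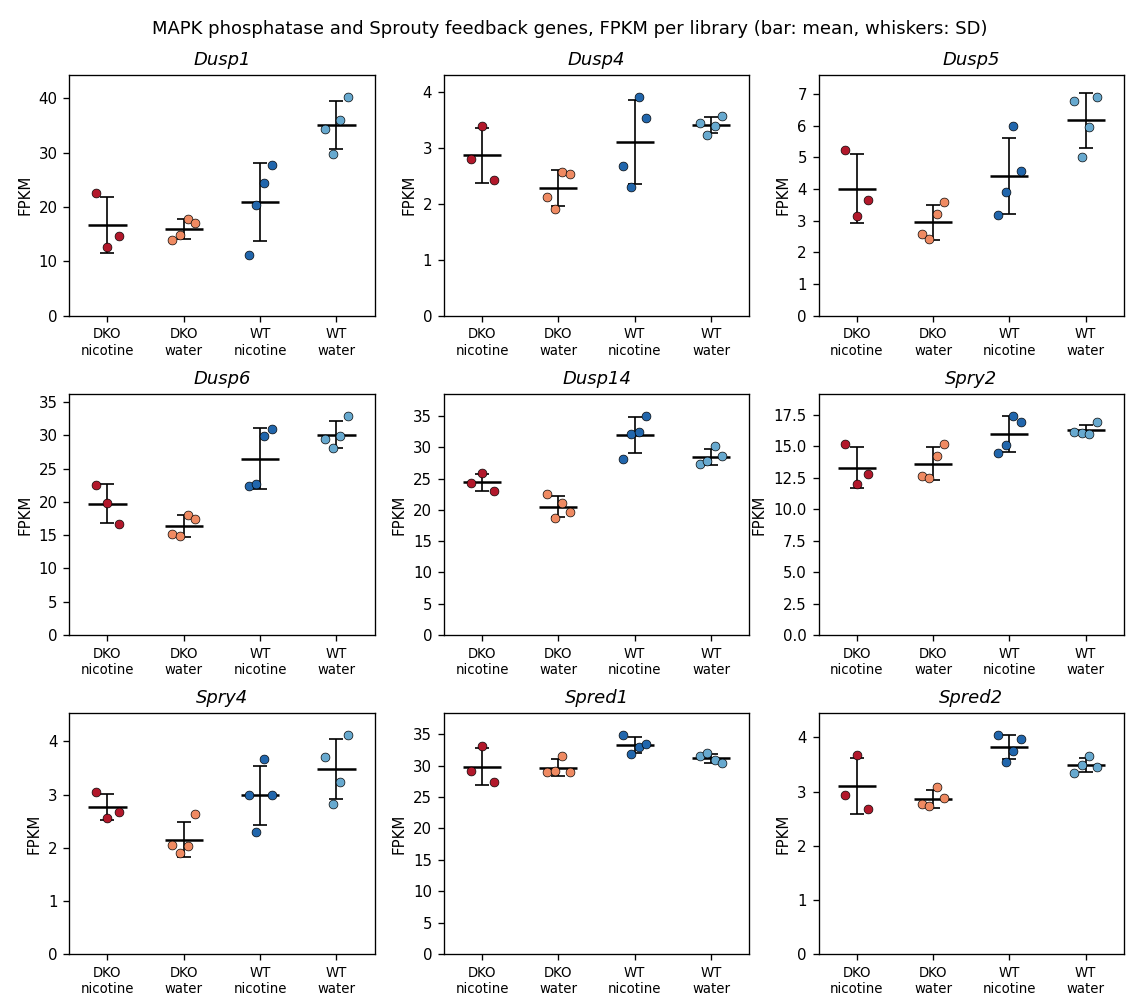
FPKM of the 9 inhibitors in each of the 15 libraries (points) with the group mean and SD (bars), DKO before WT and nicotine before water, on axes that start at 0. Dusp1 lay between 13.9 and 17.9 FPKM in DKO mice on water and between 29.8 and 40.3 FPKM in WT mice on water, and between 11.2 and 27.7 FPKM in WT mice on nicotine.

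The first comparison asks how the double knockout differs from wild type without nicotine. Of the 9 genes, 8 fell in DKO mice on water, none rose, and Spred1 was not called. Of all tested genes 12.4% fell in this comparison and 25.5% rose. In each of these 8 genes every DKO library was below every WT library, as was the case for 12.5% of all genes. The median difference of the 9 genes was −0.46, against 0.05 over all genes tested. In bulk tissue, fewer cells of a type and less RNA per cell cannot be told apart.

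The inducible nuclear phosphatases fell by unequal amounts. Dusp1, which acts on JNK, p38 and ERK in the nucleus, had 13.9, 14.8, 17.9 and 17.0 FPKM in DKO mice on water, against 34.3, 29.8, 35.9 and 40.3 FPKM in WT mice on water. Every DKO library was below every WT library. The mean fell by 54.7% (difference −1.09, SE 0.21, 95% interval −1.53 to −0.66, limma adjusted p = 0.000535).

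Dusp5, a nuclear phosphatase that is selective for ERK, had 2.59, 2.41, 3.21 and 3.60 FPKM in DKO mice on water, against 6.79, 5.02, 5.96 and 6.91 FPKM in WT mice on water. Its mean fell by 52.1%, close in size to that of Dusp1 (difference −0.86, SE 0.15, limma adjusted p = 0.000269). Dusp4, a nuclear phosphatase near to Dusp1 in sequence, had 2.12, 1.91, 2.57 and 2.55 FPKM in DKO mice on water, against 3.45, 3.23, 3.41 and 3.59 FPKM in WT mice on water. Its mean fell by 33.1%, less than those of Dusp1 and Dusp5 (difference −0.43, SE 0.11, limma adjusted p = 0.00577).

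Dusp6 is the cytoplasmic phosphatase of this set. It is selective for ERK and serves widely as a marker of ERK signalling. It had 15.2, 14.8, 18.1 and 17.4 FPKM in DKO mice on water, against 29.4, 28.2, 30.0 and 32.9 FPKM in WT mice on water. The nearest libraries of the groups, at 18.1 and 28.2 FPKM, were far apart beside the spread within each. The mean fell by 45.7%, with the smallest adjusted p of the 9 genes (difference −0.84, SE 0.11, limma adjusted p = 8.63e-06).

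Dusp14, a small phosphatase without the kinase-docking domain of the others and best known as a brake on T-cell signalling, had 22.6, 18.7, 21.1 and 19.7 FPKM in DKO mice on water, against 27.3, 27.9, 30.2 and 28.6 FPKM in WT mice on water. Its mean fell by 27.9% with little spread in either group (difference −0.46, SE 0.06, limma adjusted p = 2.8e-05).

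Among the Sprouty and Spred genes the falls were unequal. Spry4, which restrains ERK activation downstream of receptor tyrosine kinases, had 2.05, 1.90, 2.04 and 2.63 FPKM in DKO mice on water, against 3.72, 2.83, 3.23 and 4.12 FPKM in WT mice on water (difference −0.50, SE 0.11, limma adjusted p = 0.00129). Its mean fell by 38%, the largest percentage among the 4. Spry2, the most studied Sprouty in receptor trafficking, averaged 13.6 ± 1.29 FPKM in DKO mice on water and 16.3 ± 0.457 FPKM in WT mice on water (SD, n = 4 each). It fell by 16.3% (difference −0.24, SE 0.07, limma adjusted p = 0.0151).

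Spred1 and Spred2 bring the Ras inhibitor neurofibromin to the membrane. Spred2 averaged 2.86 ± 0.16 FPKM in DKO mice on water and 3.49 ± 0.131 FPKM in WT mice on water (SD, n = 4 each), so its mean fell by 17.9% (difference −0.22, SE 0.07, limma adjusted p = 0.0182). Spred1 had 28.9 to 31.6 FPKM in DKO mice on water, against 30.4 to 32.0 FPKM in WT mice on water. The groups overlapped, and the interval of the difference runs from −0.17 to 0.04 (limma adjusted p = 0.293).

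The 2 calls with the largest adjusted p, Spry2 and Spred2, each depended on single libraries. Spry2 lost its call without DKO water replicate 1 (limma adjusted p = 0.0509) or 2 (0.055), and Spred2 lost it without DKO water replicate 2 (0.0515) or WT water replicate 3 (0.0513). The other 6 kept theirs whichever library was left out.

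**Figure D2:**
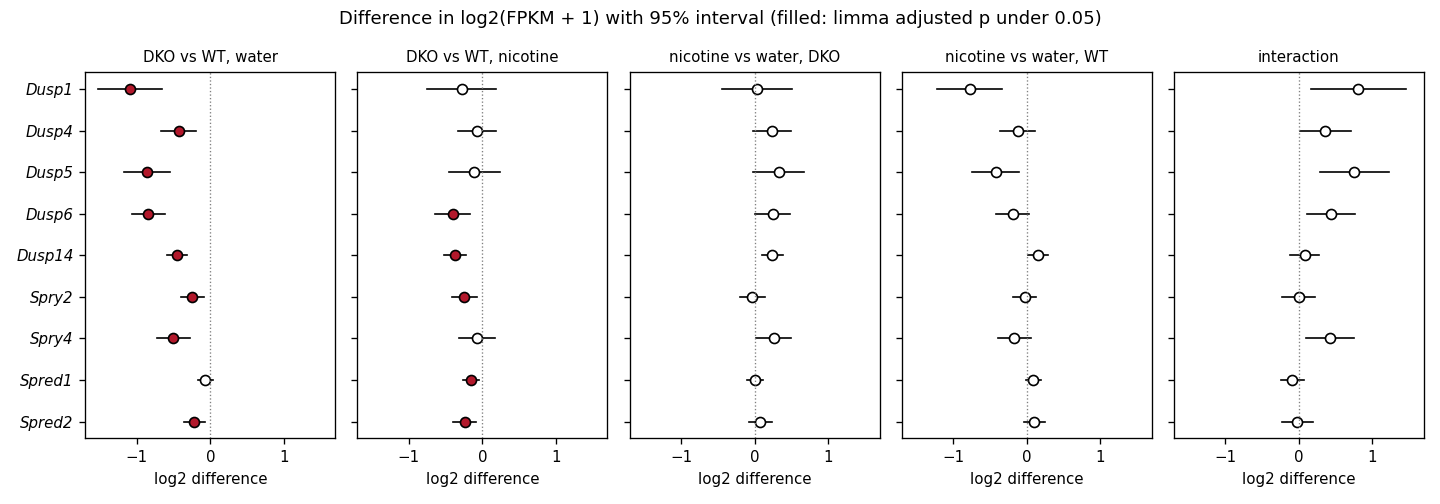
Difference on the log2(FPKM + 1) scale with its 95% interval for the 9 inhibitors in 5 comparisons, from left to right DKO against WT in water and in nicotine, nicotine against water in DKO and in WT mice, and the interaction. Filled points passed an adjusted p of 0.05. In water 8 points are filled and lie below 0, in nicotine 5 are filled, and none is filled for nicotine against water or for the interaction.

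The second comparison asks how the genotypes differ in mice that drank nicotine. Of the 9 genes, 5 fell in DKO mice (Dusp6, Dusp14, Spry2, Spred1 and Spred2), none rose, and Dusp1, Dusp4, Dusp5 and Spry4 were not called. Of all tested genes 11% fell and 24.6% rose here. The median difference was −0.24, against 0.06 over all genes. Dusp14 was the only member whose libraries did not overlap, where 11.8% of all genes were lower without overlap. Y-linked expression also differs here, being present in 2 of 3 DKO libraries and 0 of 4 WT libraries, and its part in these results was not tested. Clock genes summed to 317 to 359 FPKM in DKO mice on nicotine and 404 to 416 FPKM in WT mice on nicotine, 5 of 12 having fallen (7 after rescaling by median of ratios), and their part was not tested either.

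Dusp14 had 24.3, 25.9 and 23.1 FPKM in DKO mice on nicotine, against 28.2, 32.1, 32.5 and 35.0 FPKM in WT mice on nicotine. All 3 DKO libraries were below all 4 WT libraries, and the mean fell by 23.7% (difference −0.37, SE 0.07, limma adjusted p = 0.000477). Dusp6 had 22.6, 19.8 and 16.7 FPKM in DKO mice on nicotine, against 22.4, 22.7, 29.9 and 31.0 FPKM in WT mice on nicotine. The highest DKO library lay between the 2 lowest WT libraries, and the mean fell by 25.6% (difference −0.40, SE 0.11, limma adjusted p = 0.0107).

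Spry2 averaged 13.3 ± 1.65 FPKM in DKO mice on nicotine (n = 3) and 15.9 ± 1.42 FPKM in WT mice on nicotine (n = 4, SD), a difference of −0.25 (SE 0.08, limma adjusted p = 0.0232). Spred2 averaged 3.10 ± 0.516 FPKM in DKO mice on nicotine and 3.83 ± 0.228 FPKM in WT mice on nicotine (limma adjusted p = 0.0174). Spred1 had 29.1, 33.1 and 27.3 FPKM in DKO mice on nicotine, against 34.8, 31.8, 32.9 and 33.5 FPKM in WT mice on nicotine. It fell by 10.3% of the mean (difference −0.16, SE 0.05, limma adjusted p = 0.0327), with DKO replicate 2 inside the WT range.

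The 4 members that were not called are Dusp1, Dusp4, Dusp5 and Spry4, and in each the SD of the WT libraries on nicotine exceeded the difference between the means. Dusp1 had 22.6, 12.7 and 14.8 FPKM in DKO mice on nicotine, against 11.2, 20.5, 24.5 and 27.7 FPKM in WT mice on nicotine. The lowest library of all was thus WT nicotine replicate 1. The interval of the difference, −0.76 to 0.19, leaves room for a difference of either sign (limma adjusted p = 0.346).

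Dusp5 had 5.22, 3.14 and 3.66 FPKM in DKO mice on nicotine, against 3.18, 3.92, 5.99 and 4.58 FPKM in WT mice on nicotine (difference −0.11, 95% interval −0.45 to 0.24). Dusp4 averaged 2.88 ± 0.492 FPKM in DKO mice on nicotine and 3.11 ± 0.75 FPKM in WT mice on nicotine (interval −0.33 to 0.18). Spry4 averaged 2.76 ± 0.249 FPKM in DKO mice on nicotine and 2.99 ± 0.558 FPKM in WT mice on nicotine (interval −0.32 to 0.17). A p that misses the threshold does not show that these genes are alike in the genotypes.

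Calls among nicotine libraries rested on few libraries. Only Dusp14 was called whichever library was left out, and it was the only member called without DKO nicotine replicate 3. Without that library Dusp6 had a limma adjusted p of 0.0777, Spry2 0.0827, Spred1 0.202 and Spred2 0.116. Spry2 also lost its call without DKO nicotine replicate 2 (0.116) or WT nicotine replicate 3 (0.069) or 4 (0.0643), Spred2 without DKO nicotine replicate 1 (0.0652), and Spred1 without DKO nicotine replicate 1 (0.1) or WT nicotine replicate 1 (0.0849), 3 (0.0511) or 4 (0.0642). Dusp1 gained a call without WT nicotine replicate 1 (difference −0.54, limma adjusted p = 0.0177). With only the 7 nicotine libraries in the fit, Dusp6 and Dusp14 were called and Spry2 (0.0535), Spred1 (0.0886) and Spred2 (0.0647) were not.

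Nicotine was then compared with water within each genotype. In DKO mice limma called none of the 9 genes, and limma voom on the recovered reads also called none. Of all genes 0.157% were called. At an unadjusted p under 0.05 stood 3 of the 9 (Dusp6, Dusp14 and Spry4), against 13.9% of all genes. Dusp14 had 24.3, 25.9 and 23.1 FPKM in DKO mice on nicotine, against 18.7 to 22.6 FPKM in DKO mice on water, without overlap (difference 0.24, limma adjusted p = 0.153), and 6.91% of all genes were higher without overlap.

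Dusp6 differed by 0.25 (limma adjusted p = 0.344) and Spry4 by 0.26 (0.328). Dusp1 differed by 0.03, with an interval from −0.44 to 0.51 that covers sizeable changes in either direction. In this comparison 5 of 12 clock genes rose (Per3, Dbp, Nr1d2, Ciart and Bhlhe41), and the summed level of all 12 was 317 to 359 FPKM in DKO mice on nicotine and 285 to 297 FPKM in DKO mice on water. No source used here says at what hour tissue was taken, and the part of the clock genes in the members' values was not tested.

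In WT mice limma called none of the 9 genes for nicotine against water, nor did limma voom, and 0.173% of all genes were called. At an unadjusted p under 0.05 stood 3 of the 9 (Dusp1, Dusp5 and Dusp14), against 8.7% of all genes. Dusp1 had 11.2, 20.5, 24.5 and 27.7 FPKM in WT mice on nicotine, against 34.3, 29.8, 35.9 and 40.3 FPKM in WT mice on water. All 4 nicotine libraries were below all 4 water libraries, as were 2.66% of all genes. The difference was −0.78 (SE 0.21, 95% interval −1.21 to −0.34), with an unadjusted p of 0.00165 and a limma adjusted p of 0.23.

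Dusp5 had 3.18, 3.92, 5.99 and 4.58 FPKM in WT mice on nicotine, against 5.02 to 6.91 FPKM in WT mice on water, with overlap (difference −0.42, limma adjusted p = 0.449). Dusp14 differed by 0.16 in the other direction (limma adjusted p = 0.502). The remaining 6 members differed by −0.19 to 0.10. In these libraries the 12 clock genes summed to 404 to 416 FPKM in WT mice on nicotine and 354 to 390 FPKM in WT mice on water, without overlap, and 1 of them, Bhlhe41, rose (0.30, limma adjusted p = 0.0102). Their part in the members' values was not tested.

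The difference between the genotypes in nicotine against water was tested as an interaction. Y-linked expression was present in 4 of 4 WT libraries with water and 0 of 4 with nicotine. In DKO mice it was present in 4 of 4 and 2 of 3. The interaction therefore cannot tell a nicotine response from a difference tied to Y-linked expression. None of the 9 genes was called, by limma or by limma voom, and 2 of all genes (0.0157%) were. At an unadjusted p under 0.05 stood 5 of the 9 (Dusp1, Dusp4, Dusp5, Dusp6 and Spry4), against 6.9% of all genes, and in all 5 the difference for nicotine was higher in DKO mice than in WT mice. Dusp5 had the smallest p of these, 0.00364 (interaction 0.75, SE 0.22, limma adjusted p = 0.601), and Dusp1 an interaction of 0.81 (95% interval 0.17 to 1.45, limma adjusted p = 0.657). The loss of the calls of Dusp1, Dusp4, Dusp5 and Spry4 among nicotine libraries is therefore not a difference that passed the threshold. The interaction uses the same 15 libraries as the comparisons above and is no separate sample.

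The spread between libraries differed by gene and by group. In DKO mice on nicotine the coefficient of variation was highest for Dusp1 (31.1%) and Dusp5 (27.1%) and lowest for Dusp14 (5.77%), with Spred2 at 16.6%, Spred1 at 9.84% and Spry4 at 9.01%. In DKO mice on water it ran from 18.7% for Dusp5 to 4.29% for Spred1. In WT mice on nicotine Dusp1 (34.0%), Dusp5 (27.1%) and Dusp4 (24.1%) were highest and Spred1 (3.79%) was lowest. In WT mice on water Spry4 (16.2%), Dusp5 (14.2%) and Dusp1 (12.4%) were highest, Dusp4 was at 4.27% and Spred1 was again lowest (2.28%).

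The members were set beside 16 activity-regulated genes, library by library, as means of log2(FPKM + 1). In DKO mice on nicotine the 9 members had 3.47, 3.33 and 3.23 and the activity genes 3.45, 3.09 and 3.14, so that replicate 1 was highest in both and replicates 2 and 3 were in opposite order. In DKO mice on water the members had 3.13, 3.08, 3.27 and 3.28 and the activity genes 3.08, 3.03, 3.32 and 3.29. In WT mice on nicotine the members had 3.38, 3.45, 3.73 and 3.70 and the activity genes 3.02, 3.24, 3.64 and 3.70, with replicates 1 and 2 below replicates 3 and 4 in both. In WT mice on water the members had 3.72, 3.62, 3.72 and 3.80 and the activity genes 3.70, 3.73, 3.79 and 3.93, with replicate 2 lowest for the members and replicate 1 for the activity genes.

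Single members did not all follow their mean. In WT nicotine replicate 1, the lowest of its group for the activity genes, Spred1 and Spred2 were at their highest of the group, 0.16 and 0.17 above the mean of WT mice on water on the log2 scale. The part of neuronal activity in the members' values was not tested.

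**Figure D3:**
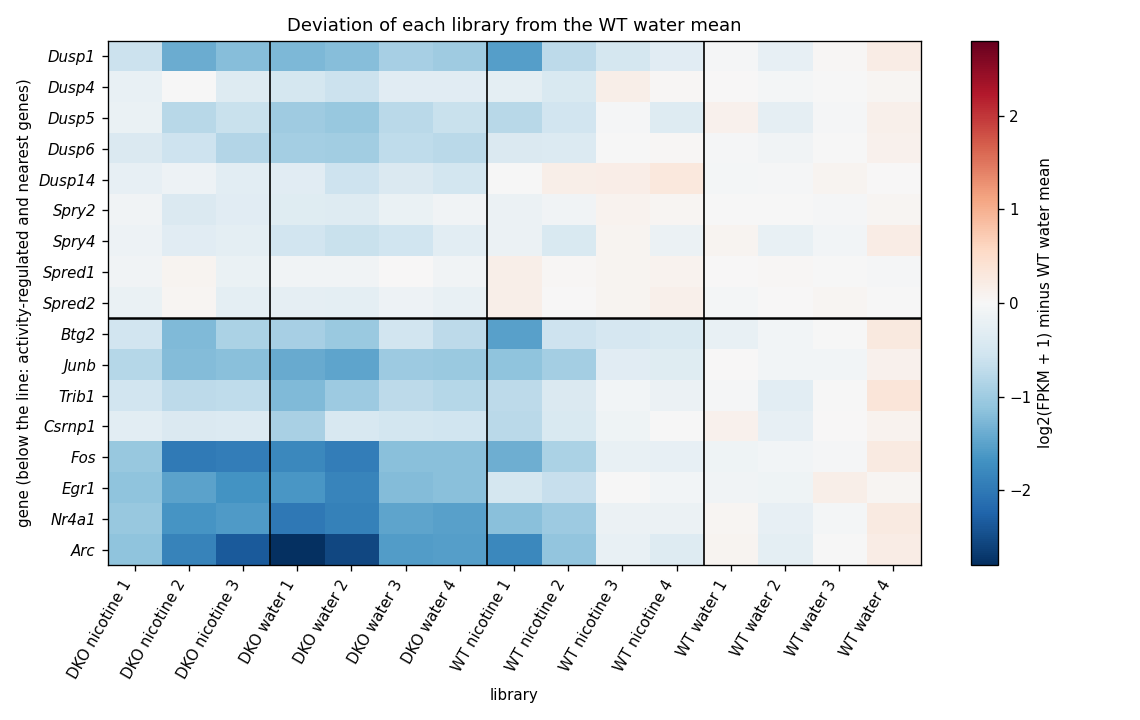
Difference of each library from the mean of WT mice on water on the log2(FPKM + 1) scale, for the 9 inhibitors and 8 genes beside them, with DKO libraries before WT libraries and nicotine before water. Dusp1 is at −1.55 in WT nicotine replicate 1 and at −0.32 in replicate 4, and Spred1 stays between −0.18 and 0.16 in all 15 libraries.

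For each member the genes whose centred values lay nearest over the 15 libraries were found among 12348 genes, by the root-mean-square difference on the log2 scale. Nearest to Dusp1 were Btg2 (0.16) and Junb (0.18), both immediate early genes, where Dusp1 itself varied by 0.54. Nearest to Dusp5 were Trib1 (0.15) and Csrnp1 (0.19), and nearest to Dusp6 were Sstr2 (0.13) and Trib1 (0.14). Midn led for both Dusp4 (0.11) and Spry4 (0.12), followed by Zfp354b and by Arl5b (each 0.13). Dusp5, Dusp6, Dusp4 and Spry4 themselves varied by 0.38, 0.37, 0.22 and 0.23, less than Dusp1.

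The remaining members had other neighbours. Dusp14 was nearest to B4galt2 (0.07) and Sorbs2 (0.08) and itself varied by 0.25. Spry2 was nearest to Cdc42ep3 (0.06) and Lrrtm4 (0.08) and varied by 0.16. Spred1 was nearest to Gramd1b and Plbd2 (each 0.04) and varied by 0.09. Spred2 was nearest to Shank2 and Hivep3 (each 0.05) and varied by 0.15. These are descriptions over libraries that share their groups.

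Relatives of the 9 genes did not all move with them. Of 4 other MAP kinase phosphatases tested, 3 rose and 1 fell in DKO mice on water. Dusp16, which prefers JNK and p38, averaged 5.25 ± 0.58 FPKM in DKO mice on water and 3.24 ± 0.243 FPKM in WT mice on water (SD, n = 4 each, difference 0.56, limma adjusted p = 2.32e-05). Dusp10, also directed at JNK and p38, rose by 0.33 (limma adjusted p = 0.0154) and Dusp8 by 0.10 (0.0191), a call that Dusp8 lost after rescaling by median of ratios (0.05, adjusted p = 0.229). Dusp7, the cytoplasmic ERK phosphatase nearest to Dusp6, averaged 21.4 ± 0.326 FPKM in DKO mice on water and 26.4 ± 0.691 FPKM in WT mice on water (difference −0.29, limma adjusted p = 0.000234).

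Of 10 atypical phosphatases Dusp26 rose (0.18, limma adjusted p = 0.00767) and Dusp23 fell (−0.37, 0.017), and none of the 10 was called among nicotine libraries. After rescaling 1 rose and 3 fell in water and Dusp3 fell in nicotine (−0.14, limma adjusted p = 0.0072). Of 12 other inhibitors that act near the receptor or Ras, 2 rose and 2 fell in each genotype comparison. Lrig1, which promotes the loss of receptors of the EGF family, averaged 9.39 ± 0.536 FPKM in DKO mice on water and 5.21 ± 0.457 FPKM in WT mice on water (difference 0.74, limma adjusted p = 5.56e-08). The adaptor Dok1 rose by 0.77 and Spred3 fell by 0.22.

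Within the ERK relay itself 3 of 23 genes rose and 7 fell in DKO mice on water. Mapk3, which encodes ERK1, averaged 114 ± 5.99 FPKM in DKO mice on water and 86.2 ± 6.63 FPKM in WT mice on water (SD, n = 4 each, difference 0.41, limma adjusted p = 0.000105). The calcium-sensitive Ras activators of neurons, Rasgrf1 (−0.48) and Rasgrf2 (−0.31), fell, as did the FGF receptor adaptor Frs2 (−0.27). The median of the 23 genes was −0.02. In nicotine 7 of the 23 rose and 5 fell, against 2 and 7 after rescaling, and Mapk3 rose by 0.50 as deposited. Of 14 genes of the p38 and JNK relays none rose and 7 fell in water, among them the JNK genes Mapk8 (−0.20), Mapk9 (−0.24) and Mapk10 (−0.29) and the p38 gene Mapk11 (−0.37), and 1 rose and 6 fell in nicotine. After rescaling none rose and 8 fell in each.

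Genes that read out ERK activity in human cancer cells were mixed. Of 8 tested, 1 rose and 4 fell in DKO mice on water, against 0 and 5 after rescaling. Egr1 averaged 48.8 ± 11.2 FPKM in DKO mice on water and 134 ± 12.8 FPKM in WT mice on water (difference −1.46, limma adjusted p = 2.23e-06). The ETS factors Etv4 (−0.33) and Etv5 (−0.30) and the receptor Epha4 (−0.20) fell. In nicotine Egr1 (−1.13), Etv5 (−0.46) and Epha4 (−0.21) fell and the cyclin Ccnd1 rose by 0.85.

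Of 14 transcription factors and kinases that ERK regulates, 5 rose and none fell in water, with Elk3 at 0.70, Myc at 0.50 and Elk1 and Mknk1 at 0.39 each, and 6 rose and 1 fell in nicotine. After rescaling 5 of the 14 rose and 1 fell in each, the fall in water being Rps6ka2 (−0.24, limma adjusted p = 0.0208). Of 21 receptors and ligands that feed into ERK, 10 rose and 3 fell in water, and 10 rose and none fell in nicotine. Those named by the smallest p in water were Fgfr1 (0.44), Fgf1 (0.39), Igf1 (0.68) and Csf1r (0.92), the last being a receptor of microglia. After rescaling 8 of the 21 rose and 3 fell in water, and 7 rose and 1 fell in nicotine. Of all genes as deposited 25.5% rose in water and 24.6% in nicotine.

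Of 16 activity-regulated genes 13 fell and 3 rose in DKO mice on water (median −0.77), and 5 fell and 3 rose among nicotine libraries (median −0.40). After rescaling 13 fell and 2 rose in water, and 7 fell and 3 rose in nicotine. Nr4a1 fell by 1.72 and Junb by 1.24 in water, whereas Jun and Nptx2 rose by 1.13 and by 1.42. For nicotine against water no gene of the 9 lists was called in DKO mice. In WT mice Npas4, a transcription factor induced by neuronal calcium entry, averaged 3.17 ± 0.65 FPKM with nicotine and 6.82 ± 0.936 FPKM with water (SD, n = 4 each, difference −0.91, limma adjusted p = 0.00266) and was the only gene of the lists called. Of these lists, Bdnf stands in 2.

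**Figure D4:**
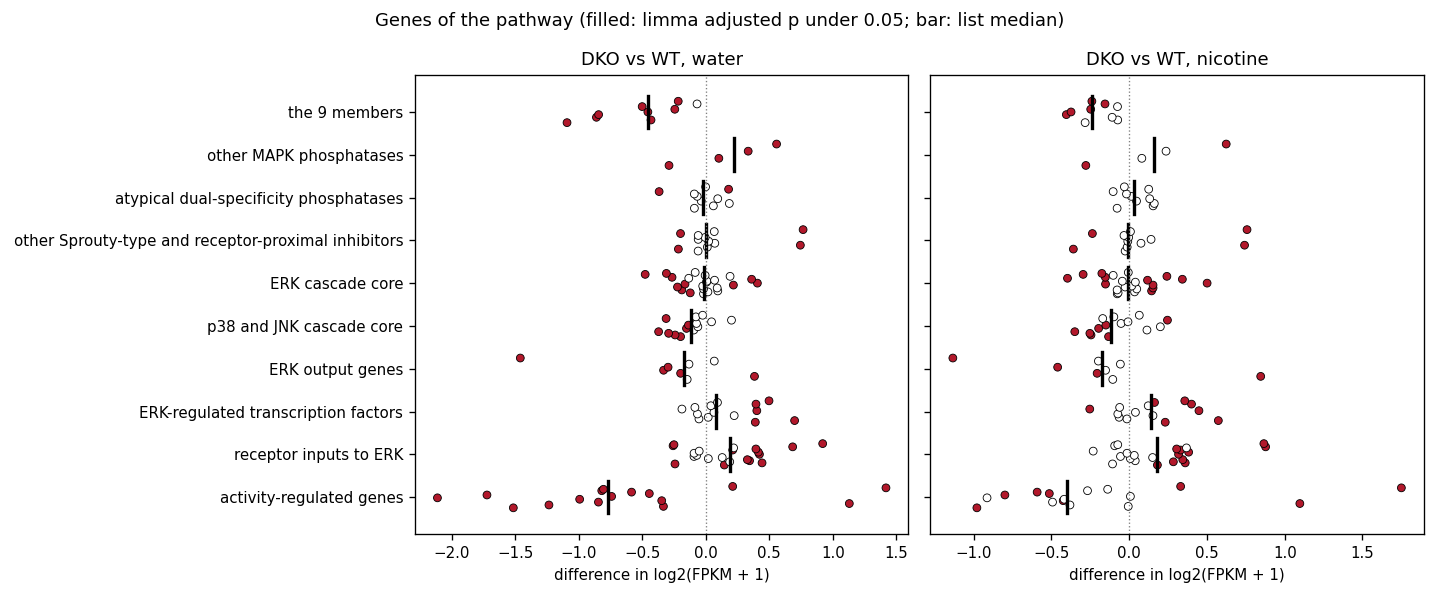
Differences on the log2(FPKM + 1) scale of the tested genes of each list (points) and their median (bar), for DKO against WT in water (left) and in nicotine (right), with the 9 inhibitors on top and called genes filled. The medians in water are −0.46 for the 9 inhibitors, −0.77 for the activity-regulated genes and −0.02 for the ERK relay.

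Cell type markers moved with genotype as well. Summed levels of the 4 pan-neuronal markers were 1519 to 1659 FPKM in DKO mice on water and 1887 to 2042 FPKM in WT mice on water, and 4 of 4 fell. Of the 6 excitatory markers 4 fell, and 5 of 5 inhibitory markers rose. Excitatory sums were 1074 to 1197 FPKM in DKO mice on water and 1330 to 1374 FPKM in WT mice on water. Most of the drop in this sum was Camk2a, at 517 FPKM in DKO mice on water and 725 FPKM in WT mice on water. Slc17a7 (difference 0.04, limma adjusted p = 0.306) and Cux2 (difference 0.04, limma adjusted p = 0.651) were not called. All 6 microglial markers rose, with sums of 282 to 305 FPKM in DKO mice on water and 120 to 133 FPKM in WT mice on water, as did all 6 astrocyte markers, with sums of 600.2 to 687 FPKM in DKO mice on water and 245 to 268 FPKM in WT mice on water. Most of the astrocyte gain was Gfap, which averaged 342 FPKM in DKO mice on water and 25.2 FPKM in WT mice on water. The other astrocyte markers had 1.21 (Aldh1l1) to 1.85 (Aqp4) times the WT mean. Markers of oligodendrocytes rose in 3 of 5 cases, of endothelium in 2 of 5 and of mural cells in 2 of 4. After rescaling 5 of 6 microglial and 2 of 5 oligodendrocyte markers rose.

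Among nicotine libraries 3 of 4 pan-neuronal markers fell, with sums of 1531 to 1670.2 FPKM in DKO mice on nicotine and 1861 to 2023 FPKM in WT mice on nicotine. Of the 6 excitatory markers 4 fell and 1 rose, and 3 of 5 inhibitory markers rose. Astrocyte markers rose in 5 of 6 cases, with sums of 581 to 651 FPKM in DKO mice on nicotine and 256 to 290.02 FPKM in WT mice on nicotine. Most of this gain was again Gfap, at 309 FPKM in DKO mice on nicotine and 25.7 FPKM in WT mice on nicotine. The other astrocyte markers had 1.14 (Sox9, not called) to 1.68 (Aqp4) times the WT mean. Microglial markers rose in 4 of 6 cases, with sums of 254 to 305 FPKM in DKO mice on nicotine and 119 to 131 FPKM in WT mice on nicotine. Oligodendrocyte (2 of 5), endothelial (1 of 5) and mural (2 of 4) markers rose too. After rescaling 4 of 4 pan-neuronal markers fell, 4 of 6 excitatory markers fell and none rose, 4 of 6 astrocyte markers rose, 1 endothelial marker rose and 1 fell, and 1 of 4 mural markers rose.

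In water clock genes fell in 9 of 12 cases, with sums of 285 to 297 FPKM in DKO mice on water and 354 to 390 FPKM in WT mice on water. Striatal markers rose in 3 of 5 cases, with sums of 183 to 302 FPKM in DKO mice on water and 118 to 175 FPKM in WT mice on water. No neuronal, glial, clock or striatal marker was under 0.5 FPKM in every library of a group. The part of any of these in the values of the 9 inhibitors was not tested. In the same libraries Spred1 differed by −0.07 and Dusp1 by −1.09.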

How the data were processed

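RNA-seq of prefrontal forebrain cortex in 15 libraries was used. The kit was a stranded TruSeq mRNA kit used on TRIzol-extracted RNA, per the labels' protocols. The authors deposited FPKM values per gene, 1 table per library, and the submitters' processing notes name the build GRCm38.p6. No source used here names the aligner, the counter or the strand setting, so reads of overlapping genes cannot be assigned with certainty. The labels number the libraries without saying that each is a separate mouse, so p-values measure the spread between libraries.

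Names of 27 genes that had turned into dates were restored from gene numbers, 21727 of which matched RefSeq and 151 did not. FPKM values were whole multiples of 1 read (100% of tested genes within 0.02 reads), which gave the reads per library. limma 3.58.1 in R 4.3.3, with an intensity trend, was fitted to log2(FPKM + 1) of 12728 genes (those reaching 1 FPKM in 3 libraries or more), all 15 libraries in 1 fit, with Benjamini-Hochberg adjustment within each of 5 comparisons. The fit was also run on simulated counts, with 1 setting of spread for every gene and changes in some genes of the DKO water libraries only. That setting is simpler than these data, so the run cannot vouch for the calls, and its outcome is not reported here.

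All 9 members are reported. Of each other list up to 4 called genes with the smallest p, or without calls the 2 of highest mean, could be named, and some genes named by this rule are not reported here. Members and lists were chosen with earlier results of these data known. Alternatives were a rescaling by median of ratios, other filters, another pseudocount, no trend, only the groups compared, a replicate block, limma voom on the recovered reads, and each library left out. Python 3.11.15 with pandas 2.3.3 and matplotlib 3.10.9 served for tables and figures.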

Additional observations from a re-analysis of the deposited data

Results flagged for a closer look

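Among the 27 sets of 4 libraries examined (each of the 9 genes in each group of that size), 1 held a library set apart from its group: Spred1 had 31.6 FPKM in DKO water replicate 3, against 28.9 to 29.2 FPKM in the other DKO water libraries. Chance flags about 1 in 20 such sets.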

How the results depend on the processing

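In water 8 of the 9 genes were called under each alternative that left out no library, except the filter at 5 FPKM, which tests 6 of them and called 5, and leaving out 1 library gave 6 to 8. In nicotine 5 were called, against 2 with only the groups compared, and leaving out 1 library gave 1 to 5. Counts over all genes for nicotine against water in DKO mice were 20, against 13 with no trend, 0 with only the groups compared, 87 with limma voom and 1 to 57 with 1 library left out; the cause was not tested. The interaction called 2 genes, against 1 with no filter, 1 with no trend, 1 with the replicate block and 1 to 6 with 1 library left out. Rescaling by median of ratios moved the median of all genes by −0.05 in water and −0.06 in nicotine. It turned 3252 higher and 1584 lower calls into 2420 and 2342 in water, and 3133 and 1405 into 2135 and 2217 in nicotine, and left 8 and 5 members called. Signs reversed for Spred1, nicotine against water in DKO mice, with rescaling (−0.0086) and with the replicate block (−0.0024), and for Spry2 in the interaction with the replicate block (0.029). With 1 library left out, differences that changed sign ran from −0.28 to 0.022 (Dusp5), −0.17 to 0.019 (Dusp4) and −0.16 to 0.0042 (Spry4) for DKO against WT in nicotine, from −0.19 to 0.20 (Dusp1), −0.12 to 0.036 (Spry2), −0.070 to 0.063 (Spred1) and −0.018 to 0.15 (Spred2) for nicotine against water in DKO mice, from −0.070 to 0.014 (Spry2) in WT mice, and from −0.093 to 0.065 (Spry2) and −0.12 to 0.051 (Spred2) in the interaction. Correlations between the deviations of same-numbered libraries ran from −0.21 to 0.16. No pairing by number was seen, but low correlations cannot show that the numbers carry none. The block gave 8 members called in water and 4 in nicotine, where Spred1 had a limma adjusted p of 0.0526. Depth limits Dusp5 most, with 51 reads in 1 library.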
